A study of Mus musculus with 6 samples.

Results

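A module of 32 genes of astroglia, Bergmann glia and reactive glia was followed in cultures of mouse cerebellar granule neurons (CGNs) given DMSO or GSK-126. The genes were found by their symbols, and all 32 were present among the 55341 genes of each count table. They were grouped by role into 3 intermediate filaments, 3 genes of Bergmann and radial glia, 8 genes of the glial membrane, 3 receptors, 6 intracellular enzymes and binding proteins, 3 secreted proteins and 6 genes of reactive glia.

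Poly-A RNA was sequenced from 3 DMSO cultures and from 3 cultures that received GSK-126, which blocks EZH2, the catalytic subunit of the Polycomb complex PRC2. Cells came from CD1-IGS mice of both sexes at P6-P8, and a Percoll gradient enriched granule neuron progenitors before plating. All cultures, DMSO included, received cytosine arabinoside (AraC) at DIV2 against dividing non-neuronal cells, then a single dose of GSK-126 or DMSO at DIV3, and RNA was taken at DIV5. The labels name cerebellum as the tissue and DIV3 as the day, and each replicate is a culture from pooled litters, so any glia present had passed both the gradient and the AraC.

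Astroglia regulate water, ions and transmitters around neurons, and they are coupled through connexin gap junctions. In the cerebellum their specialised form is the Bergmann glia, whose radial fibres span the molecular layer and guide migrating granule cells. Injury, inflammation and cell culture move astroglia into reactive states, in which filament proteins, acute-phase proteins and complement are made in larger amounts. EZH2 places the repressive mark H3K27me3, which in neural progenitors is known to take part in the switch from neurogenesis to the making of glia.

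To place the promoter sequences beside the values, the windows around the transcription start sites of 28 of the 32 genes were taken from RefSeq on GRCm38.p6. The genes Aqp4, Atp1b2, Clu and Sparcl1 had no entry. Motifs linked to glial or inflammatory transcription were searched on both strands in windows of 300 bases, and the motifs do not overlap in the windows shown here. The 28 genes had 34 windows, and for each motif the number of these windows with a match equals the number of genes given. The STAT palindrome TTCNNNGAA was in windows of 5 genes (Acsbg1, Aldoc, Gfap, Ntsr2 and Steap4) and in 8.3% of all 32851 windows. The NFI half-site TTGGCA was also in windows of 5 genes (Aldoc, Hepacam, Lcn2, S100b and Steap4) and in 14.1% of all windows. The SOX motif ACAAAG was in windows of 3 genes (Dio2, Hepacam and Timp1) and in 18.7% of all windows. The AP-1 motif TGANTCA was in the window of Gja1 and in 7.81% of all windows, and the NF-kB motif GGANTTTCC was in no window of the 28 genes and in 1.25% of all windows. A match describes letters and not a bound site.

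Windows are printed for Timp1, S100b and Lcn2, which rose in the paired comparison described further on and hold a motif, and for Gfap and Gja1, the filament and the gap junction protein by which astroglia are commonly recognised. Each run of 260 bases reads 5′ to 3′ on the gene's strand, from 250 bases before the RefSeq start to 10 bases past it. Capitals mark the motif match, which is a SOX motif in Timp1 (plus strand, chrX:20869916-20870175), an NFI half-site in S100b (plus strand, chr10:76253586-76253845), a reverse-strand NFI half-site in Lcn2 (minus strand, chr2:32387730-32387989), a STAT palindrome in Gfap (minus strand, chr11:102897191-102897450) and an AP-1 motif in Gja1 (plus strand, chr10:56377050-56377309).
Timp1: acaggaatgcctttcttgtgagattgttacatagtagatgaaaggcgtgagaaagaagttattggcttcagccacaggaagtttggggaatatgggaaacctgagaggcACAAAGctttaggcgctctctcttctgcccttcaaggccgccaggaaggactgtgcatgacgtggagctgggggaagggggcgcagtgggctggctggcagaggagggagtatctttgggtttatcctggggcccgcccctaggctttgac
S100b: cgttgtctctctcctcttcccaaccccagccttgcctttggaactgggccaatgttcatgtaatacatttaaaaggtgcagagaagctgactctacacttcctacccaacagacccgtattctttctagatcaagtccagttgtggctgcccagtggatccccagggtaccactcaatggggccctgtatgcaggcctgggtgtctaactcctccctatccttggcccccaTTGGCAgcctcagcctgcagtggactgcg
Lcn2: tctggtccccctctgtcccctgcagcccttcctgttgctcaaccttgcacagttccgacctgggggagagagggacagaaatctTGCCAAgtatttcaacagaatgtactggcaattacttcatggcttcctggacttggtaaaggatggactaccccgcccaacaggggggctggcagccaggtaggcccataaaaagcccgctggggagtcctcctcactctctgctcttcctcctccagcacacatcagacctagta
Gfap: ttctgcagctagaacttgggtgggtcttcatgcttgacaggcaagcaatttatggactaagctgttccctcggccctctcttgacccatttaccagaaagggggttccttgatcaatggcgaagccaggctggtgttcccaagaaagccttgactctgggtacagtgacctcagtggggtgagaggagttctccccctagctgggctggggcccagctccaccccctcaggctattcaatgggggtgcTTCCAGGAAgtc
Gja1: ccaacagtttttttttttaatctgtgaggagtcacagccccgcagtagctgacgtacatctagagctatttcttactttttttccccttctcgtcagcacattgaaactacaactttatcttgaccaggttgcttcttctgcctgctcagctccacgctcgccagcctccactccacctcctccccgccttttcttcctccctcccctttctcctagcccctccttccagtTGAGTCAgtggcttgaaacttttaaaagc

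The STAT match of Gfap began 2 bases before the start and so ran across it. The matches of S100b and Gja1 both began 19 bases before the start, while those of Timp1 and Lcn2 lay farther upstream, at 141 and 166 bases. The windows of Gfap and Lcn2 lie inside the GENCODE gene bodies (Gfap chr11:102887336-102900912 and Lcn2 chr2:32384633-32388252, both minus strand), since the RefSeq start is not the outermost annotated start of either gene.

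Libraries held 7407189 to 13092763 counts on genes, and the 32 genes took 0.586% to 1.36% of them. No library was a copy of another. All 32 genes passed the filter on low counts and were among 16729 genes tested. Levels are CPM, library-size-scaled counts with TMM factors, and are listed for replicates 1, 2 and 3 in that order. Fold changes are on the log2 scale, GSK-126 over DMSO, with the standard error of the fit.

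Glial RNA was abundant in both groups, and its summed level differed more between replicates than between DMSO and GSK-126 of the same replicate number. The summed level of the 32 genes was 12903, 6165 and 8611 CPM in DMSO and 13479, 5903 and 8698 CPM with GSK-126. The first culture was highest and the second lowest in both groups, and the groups overlapped. Within the same replicate number, the level with GSK-126 was 1.04, 0.958 and 1.01 times that with DMSO, while the DMSO libraries spanned a 2.09-fold range among themselves. This total joins the filament genes, whose sum was higher within every pair, with the membrane genes, whose sum was lower within every pair. Without the abundant filament genes Gfap and Vim, the sum of the other 30 genes was 0.979, 0.886 and 0.995 times that with DMSO. In bulk RNA, fewer glia and less glial RNA per cell cannot be told apart. The sum of 50 other astroglia genes followed the same order, with 9242, 4624 and 6626 CPM in DMSO and 10022, 4685 and 6808 CPM with GSK-126.

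The order of the cultures recurred gene by gene. In 23 of the 32 genes replicate 1 was the highest library of both groups, an order found in 19.5% of all genes tested. Replicate 2 was the lowest of both groups in 22 of them, against 24.2% of all genes. Atp1b2, Ntsr2, Lcn2, Serpina3n and C3 went the other way, with replicate 2 highest in both groups, and Nes and Timp1 were highest in replicate 3 of both. The DMSO range exceeded the difference between group means in 29 of the 32 genes, all but Atp1b2, C3 and Timp1, and it was at least 2-fold in 15. The shares of all genes tested that did so were not counted, so these counts do not set the 32 genes apart. The median range within DMSO was 1.94-fold for the 32 genes and 1.41-fold for all genes tested.

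**Figure D1:**
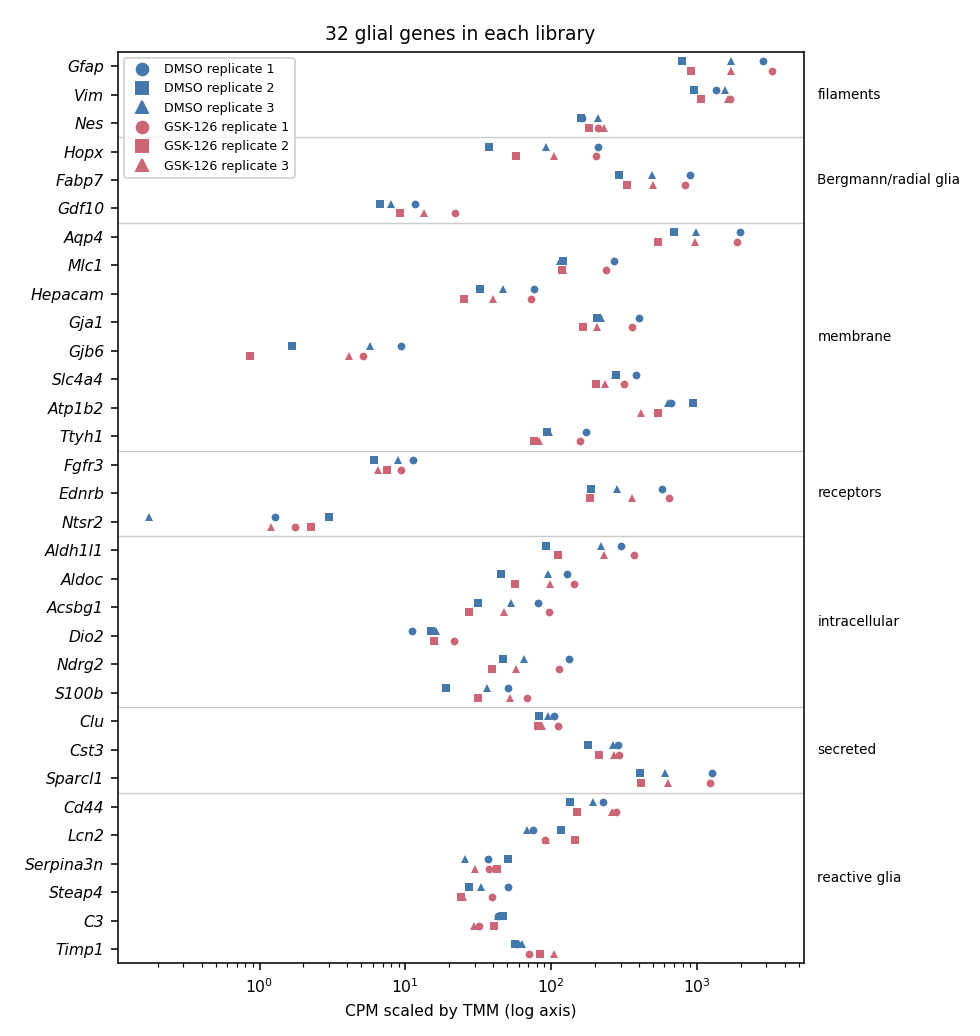
Level of each of the 32 genes (vertical axis, grouped by role) in each of the 6 libraries (horizontal axis, CPM scaled by TMM, log axis), with DMSO in blue, GSK-126 in red and the replicate number given by the symbol. In most genes the circles (replicate 1) lie to the right and the squares (replicate 2) to the left in both colours, as in Gfap, from 787 to 3300 CPM.

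The defining astroglial markers were present in every library. Per kilobase of exon, the DMSO mean level was highest for Fabp7 (447 CPM per kb), Gfap (423), Vim (271), Sparcl1 (259), Aqp4 (196), Cst3 (193) and Atp1b2 (183), and it was lowest for Ntsr2 (0.473), Fgfr3 (1.22) and Gdf10 (1.69). The glutamate transporter Slc1a2, a further marker of astroglia that is not among the 32, was at 224, 200 and 167 CPM in DMSO and 217, 131 and 146 CPM with GSK-126. The genes with the fewest counts were Ntsr2, with 2 to 32 per library, and Gjb6, with 8 to 81.

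Without a replicate block, the edgeR quasi-likelihood test (Benjamini-Hochberg adjusted p under 0.05) called 0 of the 32 genes and 0% of all 16729 genes. At an unadjusted p under 0.05 this test passed 3 of the 32 genes, Atp1b2, C3 and Timp1, against 3.98% of all genes. DESeq2 without a block also called 0 of the 32 genes, and 0.126% of all genes. The replicate numbers pair the libraries across the groups, as described with the processing, and adding that number to the model lowered the biological coefficient of variation from 24.0% to 9.74%. With the block, edgeR called 8 of the 32 genes, against 8.44% of all genes. Gdf10, S100b, Cd44, Lcn2 and Timp1 rose (5 of 32, against 3.35% of all genes that rose), and Slc4a4, Atp1b2 and C3 fell (3 of 32, against 5.09%).

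DESeq2 with the block called 6 of the 32 genes, against 5.9% of all genes, and these were the same genes without Gdf10 and C3. Of them 4 rose (against 2.21% of all genes) and 2 fell (against 3.69%). In 11 of the 32 genes GSK-126 was higher in all 3 pairs, as in 19.5% of all genes, and in 10 it was lower in all 3, as in 22.8%. The median log2 fold change of the 32 genes was 0.03 without the block, with 16 above and 16 below 0, against -0.01 for all genes tested. Counts of calls in the following paragraphs are from edgeR with the block.

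**Figure D2:**
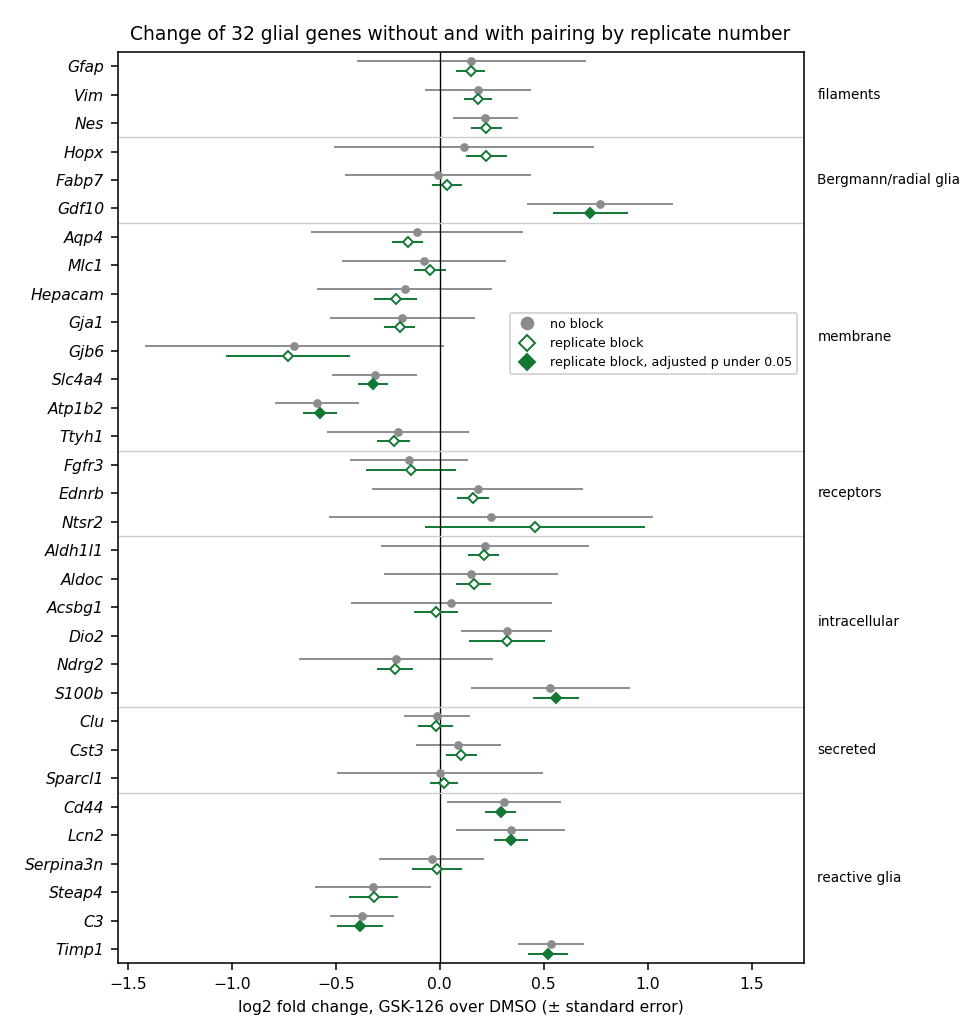
Log2 fold change of each of the 32 genes, GSK-126 over DMSO, with its standard error (horizontal bars), from edgeR without the replicate block (grey circles) and with it (green diamonds, filled where the adjusted p was under 0.05). The bars shorten with the block, for Gfap from 0.55 to 0.068, and some estimates shift, for Hopx from 0.12 to 0.22, and the 8 filled diamonds include 5 to the right and 3 to the left of 0.

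The intermediate filament genes, whose products form the astroglial cytoskeleton, were each higher with GSK-126 in all 3 pairs, but none passed the test. Gfap, the classical astrocyte filament, was at 2856, 787 and 1703 CPM in DMSO and at 3300, 919 and 1719 CPM with GSK-126. The log2 fold change was 0.15 ± 0.068 with the block (edgeR adjusted p = 0.211) and 0.15 ± 0.55 without it. Vim, the filament of immature and reactive glia and of mesenchymal cells, was at 1364, 949 and 1550 CPM in DMSO and at 1680, 1061 and 1648 CPM with GSK-126. Nes, the filament of neural stem cells and radial glia, was at 164, 160 and 210 CPM in DMSO and at 210, 181 and 230 CPM with GSK-126. With the block, Vim and Nes had log2 fold changes of 0.18 and 0.22 with edgeR adjusted p-values of 0.113 and 0.076. In each filament gene the groups overlapped. Leaving out DMSO replicate 2 or GSK-126 replicate 1 without a block gave a negative change for Gfap, and its values over the 6 omissions ran from -0.42 to 0.68.

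Among the genes of Bergmann and radial glia, Gdf10 rose. Gdf10 (chr14:33923587-33937983, plus strand, GRCm38) encodes a TGF-beta family ligand used as a Bergmann glia marker. Its level was low, at 11.7, 6.71 and 8.0 CPM in DMSO and 21.8, 9.26 and 13.5 CPM with GSK-126. Each GSK-126 library stood above its own DMSO partner, although the lowest GSK-126 library was below the highest DMSO library. The log2 fold change was 0.72 ± 0.18 (edgeR with the block, adjusted p = 0.0146). The call was not made by DESeq2 with the block (adjusted p = 0.0628) or without the replicate 1 pair.

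Fabp7, the brain lipid-binding protein of radial and Bergmann glia, did not follow Gdf10. It was at 893, 291 and 492 CPM in DMSO and 836, 330 and 501 CPM with GSK-126, with a log2 fold change of 0.03 ± 0.072 with the block (edgeR adjusted p = 0.835). Hopx, a homeodomain cofactor without DNA binding of its own, was at 209, 37.8 and 92.1 CPM in DMSO and 205, 57.7 and 104 CPM with GSK-126. The log2 fold change was 0.22 ± 0.099 with the block (edgeR adjusted p = 0.189). Hopx had the largest DMSO range among these 3 genes, 5.55-fold, and 412 bases of its exons lie opposite the antisense gene Hopxos. The strand setting was not given, so how reads of that stretch were counted is not known. Of 15 other Bergmann glia genes 14 were tested, and 2 passed with the block, both lower. The 2 were Gria4, a subunit of the AMPA receptor, at a log2 fold change of -0.28, and Ptch1, the Sonic hedgehog receptor, at -0.46. In DMSO, Gria4 was at 232, 264 and 191 CPM and Ptch1 at 80.6, 179 and 110 CPM. Both were highest in replicate 2 of both groups, where the granule neuron markers were also highest. The part of that in their fall was not tested.

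Of the 8 genes of the glial membrane, Slc4a4 and Atp1b2 fell (against 5.09% of all genes), and the estimates of all 8 were below 0 with and without the block. All but Mlc1 were lower in each of the 3 pairs, as were 22.8% of all genes. The estimates of all 8 stayed below 0 with DESeq2 size factors, upper-quartile factors and total counts. They were also below 0 with the scaling to other astroglia genes described for Gja1. That scaling shifts the median of all genes by -0.038, so it is no independent check of their sign. In contrast, leaving out DMSO replicate 1 or GSK-126 replicate 2 without a block put 5 of the 8 above 0. Their summed level was 3957, 2384 and 2385 CPM in DMSO and 3577, 1673 and 2072 CPM with GSK-126, which gave 0.904, 0.702 and 0.869 times the DMSO level within the pairs.

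Atp1b2, the beta-2 subunit of the sodium-potassium pump (chr11:69599736-69605942, minus strand, GRCm38), had the smallest adjusted p-value of the 32 genes. Its level was 661, 948 and 637 CPM in DMSO and 533, 543 and 414 CPM with GSK-126, so that every GSK-126 library was below every DMSO library. Groups without overlap in that direction were found in 4.72% of all genes. The log2 fold change was -0.58 ± 0.081 (edgeR with the block, adjusted p = 9.59e-05), and DESeq2 with the block gave an adjusted p of 2.57e-08. Atp1b2 was highest in replicate 2, where the granule neuron markers were also highest, and the part of that in its fall was not tested.

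Slc4a4, the sodium bicarbonate cotransporter of astroglia (chr5:88886818-89239653, plus strand), was at 380, 279 and 276 CPM in DMSO and 315, 204 and 234 CPM with GSK-126. Each pair went down, while the groups overlapped through replicate 1. Its log2 fold change was -0.32 ± 0.073 (edgeR with the block, adjusted p = 0.0074), and the call was lost without the replicate 2 pair.

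The water channel Aqp4 was at 1983, 701 and 985 CPM in DMSO and 1894, 540 and 967 CPM with GSK-126. Gja1 (connexin 43), the main astrocyte gap junction protein, was at 403, 208 and 221 CPM in DMSO and 361, 165 and 208 CPM with GSK-126. Gjb6 (connexin 30), its partner in mature astrocytes, was at 9.34, 1.68 and 5.74 CPM in DMSO and 5.15, 0.862 and 4.14 CPM with GSK-126. The channels and connexins thus kept the order of the cultures, and none of these 3 genes passed. The log2 fold changes with the block were -0.15 for Aqp4, -0.19 for Gja1 and -0.73 ± 0.30 for Gjb6, with edgeR adjusted p-values of 0.235, 0.124 and 0.15. Gjb6, with its low counts, had the widest error of these 8 genes.

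Mlc1, a membrane protein of astrocyte endfeet, was at 270, 120 and 115 CPM in DMSO and 238, 119 and 122 CPM with GSK-126. Hepacam, the adhesion molecule that brings Mlc1 to cell contacts, was at 76.9, 32.7 and 47.1 CPM in DMSO and 73.1, 25.3 and 40.2 CPM with GSK-126. Ttyh1, a member of the tweety family of chloride channels, was at 174, 93.4 and 96.7 CPM in DMSO and 158, 75.8 and 82.5 CPM with GSK-126. With the block, the edgeR adjusted p was 0.79 for Mlc1, 0.244 for Hepacam and 0.0993 for Ttyh1. The libraries were also scaled to 58 other astroglia and Bergmann glia genes in place of TMM, an alternative chosen after seeing the data. Gja1 (-0.23) and Ttyh1 (-0.26) then passed as well, close to the threshold (edgeR with the block, adjusted p = 0.0491 and 0.0438). Among the 58 genes, 4 rose (Mt1, Mt2, Apoe and Id4) and 2 fell (Gria4 and Ptch1) with TMM and the block. With that scaling edgeR with the block called 10 of the 32 genes, against 9.6% of all genes. Of these 5 rose (against 2.58% of all genes) and 5 fell (against 7.02%).

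None of the 3 receptor genes passed. Ednrb, the endothelin receptor type B, was at 575, 189 and 286 CPM in DMSO and 643, 185 and 362 CPM with GSK-126, at a log2 fold change of 0.16 ± 0.077 (edgeR with the block, adjusted p = 0.232). Fgfr3, a fibroblast growth factor receptor of the astroglial lineage, was at 11.3, 6.06 and 8.86 CPM in DMSO and 9.40, 7.54 and 6.54 CPM with GSK-126, and 998 bases of its exons lie opposite G630022F23Rik. The neurotensin receptor Ntsr2 had 11, 32 and 2 counts in DMSO and 23, 21 and 9 with GSK-126, and at this depth no difference was detectable.

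Among the 6 intracellular genes, S100b rose. S100b encodes the calcium-binding protein of astroglia (chr10:76253853-76261159, plus strand). It was at 50.8, 18.9 and 36.1 CPM in DMSO and 68.6, 31.8 and 52.0 CPM with GSK-126. All 3 pairs went up, by 0.43, 0.73 and 0.52 on the log2 scale, and the groups overlapped, with the cultures differing 2.68-fold within DMSO. With all pairs the log2 fold change was 0.56 ± 0.11 (edgeR with the block, adjusted p = 0.00244), and without the block the same estimate came to 0.53 ± 0.38. S100b was called in each of the 6 fits with a block, which were those of edgeR and DESeq2, those without each pair in turn and the one scaled to other astroglia genes.

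The folate enzyme Aldh1l1, a general astrocyte marker, was at 300, 92.9 and 220 CPM in DMSO and 369, 111 and 232 CPM with GSK-126. Aldoc, the brain aldolase of glycolysis, was at 129, 45.6 and 95.5 CPM in DMSO and 143, 56.2 and 98.8 CPM with GSK-126. Both were higher in every pair but did not pass, at edgeR adjusted p-values of 0.0953 and 0.274 with the block. For Aldh1l1, 499 bases of exon lie opposite Gm15756. Ndrg2, a cytoplasmic protein enriched in astrocytes, was at 133, 46.4 and 65.2 CPM in DMSO and 113, 39.3 and 57.7 CPM with GSK-126, lower in every pair (edgeR with the block, adjusted p = 0.147).

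Acsbg1, an acyl-CoA synthetase, was at 81.9, 31.3 and 52.8 CPM in DMSO and 97.0, 27.2 and 47.3 CPM with GSK-126. Its pairs disagreed in sign. Dio2, the deiodinase that activates thyroid hormone in astroglia, was at 11.2, 15.0 and 16.3 CPM in DMSO and 21.5, 15.6 and 16.0 CPM with GSK-126. The higher GSK-126 mean of Dio2 came from replicate 1, whose pair differed by 0.91 on the log2 scale against 0.06 and -0.03 in the others.

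The 3 secreted proteins did not pass. The level within pairs moved little, except for Cst3 in replicate 2, which was higher with GSK-126 by 0.25 on the log2 scale. Clu, an extracellular chaperone also called apolipoprotein J, was at 104, 83.3 and 94.6 CPM in DMSO and 112, 80.8 and 86.4 CPM with GSK-126. Cst3, the protease inhibitor cystatin C, was at 287, 180 and 267 CPM in DMSO and 294, 214 and 272 CPM with GSK-126. Sparcl1 (hevin), a synapse-promoting matricellular protein of astroglia, was at 1273, 406 and 600 CPM in DMSO and 1228, 412 and 637 CPM with GSK-126. The edgeR adjusted p-values with the block were 0.918, 0.454 and 0.91. Sparcl1 had the smallest standard error of these 3 genes with the block, at a log2 fold change of 0.02 ± 0.067.

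Of the 6 genes of reactive glia, Timp1, Lcn2 and Cd44 rose, C3 fell, and Serpina3n and Steap4 did not pass. The summed level was 492, 432 and 428 CPM in DMSO and 549, 488 and 542 CPM with GSK-126, or 1.12, 1.13 and 1.27 times DMSO within the pairs. Unlike the sum over the 32 genes, this sum varied only 1.15-fold within DMSO. Gene by gene, the median DMSO range was 1.71-fold, against 1.94-fold for the 32 genes. Cd44 and Steap4 were highest in DMSO replicate 1, Lcn2, Serpina3n and C3 in replicate 2, and Timp1 in replicate 3.

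Timp1, an inhibitor of matrix metalloproteinases (chrX:20870166-20874735, plus strand), was at 58.6, 56.7 and 62.9 CPM in DMSO and 70.5, 84.0 and 104 CPM with GSK-126. It was the only one of the 32 genes with every GSK-126 library above every DMSO library, as found in 4.72% of all genes. Timp1 rose by 0.52 ± 0.097 on the log2 scale (edgeR with the block, adjusted p = 0.00151). It was called in each of the 6 fits with a block, as were S100b and Atp1b2.

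Lcn2, an acute-phase protein that binds bacterial siderophores, was at 75.0, 117 and 68.0 CPM in DMSO and 90.2, 147 and 92.4 CPM with GSK-126. Replicate 2 was highest in both groups, so the groups overlapped although each pair went up. With the block it rose by 0.34 ± 0.082 on the log2 scale (edgeR adjusted p = 0.0102). Cd44, the hyaluronan receptor (chr2:102811141-102901665, minus strand), was at 228, 134 and 195 CPM in DMSO and 279, 150 and 261 CPM with GSK-126. In the same fit it rose by 0.29 ± 0.075 (edgeR adjusted p = 0.0172). The call of Lcn2 was lost without the replicate 3 pair, and that of Cd44 without the replicate 1 or the replicate 3 pair.

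C3, the central complement component (chr17:57203970-57228136, minus strand), went the opposite way. Its level was 42.9, 47.0 and 42.9 CPM in DMSO and 32.1, 40.7 and 29.5 CPM with GSK-126, each GSK-126 library lying below each DMSO library. On the log2 scale this was a change of -0.38 ± 0.11 (edgeR with the block, adjusted p = 0.0382). DESeq2 with the block did not call C3 (adjusted p = 0.121), nor did edgeR without the replicate 1 or the replicate 3 pair. Steap4, a metalloreductase, was at 50.6, 27.2 and 32.9 CPM in DMSO and 39.3, 24.2 and 24.7 CPM with GSK-126, lower in every pair (edgeR with the block, adjusted p = 0.111). Serpina3n, a serine protease inhibitor widely used as a reactive astrocyte marker, was at 37.0, 50.3 and 25.8 CPM in DMSO and 37.6, 42.3 and 30.1 CPM with GSK-126, and its pairs disagreed in sign.

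**Figure D3:**
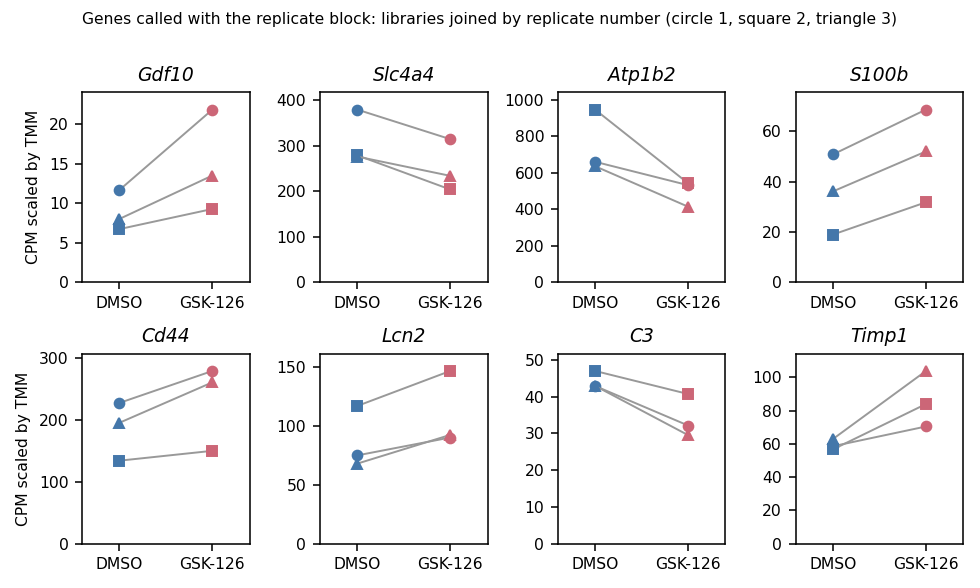
CPM scaled by TMM (vertical axes, from 0) in DMSO and GSK-126 libraries (horizontal axes) for the 8 genes called with the replicate block, with lines joining libraries of the same replicate number. All 3 lines of each panel run in 1 direction, while only in Atp1b2, C3 and Timp1 do the points of the groups not overlap.

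Other genes of these programmes were read from the same fit with the block. Of 50 other astroglia genes 49 were tested, and 4 rose and none fell. These were the metallothioneins Mt1 (0.48) and Mt2 (0.54), which bind metals, the lipoprotein Apoe (0.34) and the differentiation inhibitor Id4 (0.33), all as log2 fold changes. The glutamate transporter Slc1a3 was at 1519, 484 and 770 CPM in DMSO and 1463, 405 and 721 CPM with GSK-126. Of 6 other genes shared by reactive states 0 passed in edgeR or DESeq2 with the block, and 0 had an unadjusted p under 0.05 without it. Of 12 genes linked to the A1 state 11 were tested and 1 rose, the galactosyltransferase Ggta1 (0.43). Of 12 linked to the A2 state 10 were tested and 3 rose, the pentraxin Ptx3 (1.18), the annexin partner S100a10 (0.37) and the membrane protein Emp1 (0.28). Over all genes 3.35% rose in that fit. DESeq2 with the block called 1 of the A2 genes, Ptx3, and 0 of the A1 genes, and it called 3 of the 4 astroglia genes that rose, without Id4.

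Markers of some other cell types in the cultures differed within the pairs. The summed levels of the groups overlapped for every such list except the GABAergic and Purkinje cell markers. Those were at 234, 213 and 248 CPM in DMSO and 200, 175 and 167 CPM with GSK-126. The 12 granule neuron markers had a summed level of 5046, 8034 and 5825 CPM in DMSO and 4018, 6505 and 4517 CPM with GSK-126, which is 0.796, 0.81 and 0.776 times DMSO within the pairs. Replicate 2, the lowest in glial RNA, was the highest in granule neuron RNA. Of these 12 markers 7 fell and none rose, among them Gabra6 (-1.19), a GABA-A receptor subunit of mature granule cells, and Etv1 (-1.17), a transcription factor of their maturation. Of 14 pan-neuronal markers 7 fell and 2 rose. Over all genes tested, 5.09% fell and 3.35% rose with the block, which applies to the lists that follow as well.

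As background, microglia are known to make C3 and Cd44, and mural and fibroblast cells to make Timp1, Vim and Cd44. Of the 12 microglia markers 11 were tested and 4 rose, C1qa, C1qb, C1qc and Tyrobp, and 1 was at 0 counts in every library. Their sum was 700, 335 and 649 CPM in DMSO and 861, 465 and 742 CPM with GSK-126, or 1.23, 1.39 and 1.14 times DMSO. Of the 9 mural and fibroblast markers 4 rose, Col1a2, Pdgfrb, Acta2 and Tagln, and their sum was 7729, 8335 and 10422 CPM in DMSO and 9643, 8937 and 11380 CPM with GSK-126. That sum was 1.25, 1.07 and 1.09 times DMSO within the pairs. The sum was highest in replicate 3 of both groups, as Timp1 was. Within the pairs, Timp1 rose least in replicate 1, where the sum rose most (Timp1 0.26, 0.56 and 0.72 on the log2 scale). The oligodendrocyte lineage was at 1.01, 1.17 and 1.11 times DMSO with 1 of 11 tested markers called, Mbp (0.28). Of 8 GABAergic and Purkinje cell markers 3 fell (Gad1, Gad2 and Slc32a1), and of 6 tested granule progenitor markers 1 rose, the cyclin Ccnd2 (0.41). Of 6 tested endothelial and 5 tested ependymal and choroid plexus markers 0 passed in edgeR or DESeq2 with the block, and 0 had an unadjusted p under 0.05 without it. DESeq2 with the block did not call Mbp, Gad2 or the pan-neuronal tubulin Tubb3, which rose in edgeR. It called the other cell type markers named here as rising or falling. The part of these cells in the changes of the 32 genes was not tested.

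**Figure D4:**
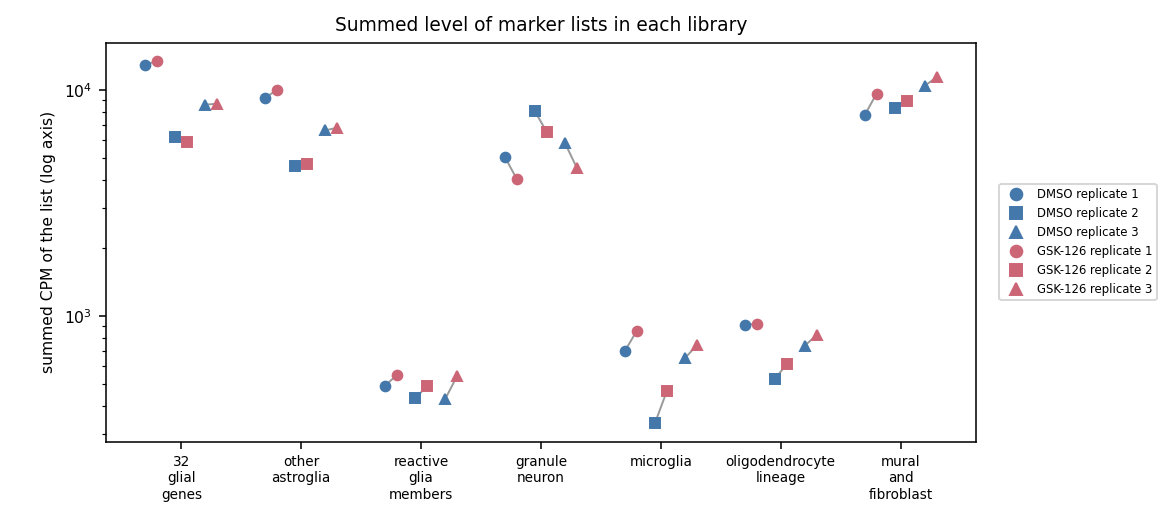
Summed CPM of marker lists (vertical axis, log axis) in each library, with DMSO in blue, GSK-126 in red and lines joining libraries of the same replicate number. The sum of the 32 glial genes stays near level within pairs (0.958 to 1.04 times DMSO) while replicates differ. Granule neuron markers are lower within every pair, and microglia markers and mural and fibroblast markers are higher within every pair.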

How the data were processed

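Per the study's methods, the authors used Trimmomatic 0.38 on the paired reads, STAR 2.7.2b for alignment to GRCm38.p4 and HTSeq to count reads on exons. The deposited values are raw counts per gene for each library, without normalization. The Gencode release and strand setting were not given in the sources used here. The 55341 symbols are those of GENCODE M21, which gave coordinates, exon lengths and overlaps. Lines that name no gene held 58.7% to 60.7% of the listed reads and were left out.

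The quasi-likelihood test of edgeR 4.0.16 was run in R 4.3.3 on these counts, with TMM factors and filterByExpr, as a comparison of GSK-126 against DMSO over 16729 genes, with Benjamini-Hochberg adjustment over all of them and a threshold of 0.05. DESeq2 1.42.0 with its Wald test, other scaling factors, other filters, a replicate block and fits without each library or pair were alternatives. Replicates are cultures from pooled litters. Same-numbered libraries deviated together from their group means (correlations over genes of 0.561, 0.634 and 0.487), and on this the libraries were paired. Differently numbered ones were at 0.00638 at most. That adds little, since the deviations within a group sum to 0 for each gene. The pairing comes from this check of the counts, since the labels give the numbers only. On counts simulated for these genes, the fits were tested for recovery of known changes. Within-pair differences used log2(CPM + 0.5).

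The 32 genes and the lists of other genes were chosen with earlier results of these data known. Each of the 32 is named. Of the other lists, only genes that passed are named, at most 6 a list, besides Slc1a3 and Slc1a2, which were chosen after their values were seen.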

Additional observations from a re-analysis of the deposited data

How the results depend on the processing

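No call among the 32 genes was made without a replicate block under any scaling factor, filter or omission of 1 library, in edgeR or DESeq2. Over all genes, 21 were called by DESeq2, 10 by edgeR without a filter on low counts and 0 to 0 when 1 library was left out. Every call among the 32 genes needed the replicate block. With it edgeR called 1412 genes and 8 of the 32, and DESeq2 called 987 genes and 6 of the 32. Without the replicate 1, 2 and 3 pairs in turn, edgeR with the block called 1088, 833 and 1277 genes and 6, 7 and 5 of the 32, and among the 6 was Hopx (0.40, adjusted p = 0.0433). Scaling to other astroglia genes, chosen after seeing the data, gave 1606 genes and 10 of the 32, with the median of all genes shifted by -0.038. The cause of these differences was not tested beyond the smaller residual spread with the block and the fewer libraries without a pair.

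The median log2 fold change of the 32 genes moved to 0.056 with upper-quartile factors, 0.047 with total counts, 0.055 and 0.047 with the block without the replicate 1 and replicate 2 pairs, and -0.011 with the scaling to other astroglia genes. Leaving out 1 library at a time, it ran from -0.33 (without GSK-126 replicate 1) to 0.25 (without DMSO replicate 1).

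Genes near 0 changed sign. Fabp7, Clu and Sparcl1 were at 0.020, 0.021 and 0.026 with upper-quartile factors, 0.0093, 0.018 and 0.016 with total counts, 0.0041, 0.0024 and 0.013 without a filter, and 0.0026, 0.0032 and 0.010 with at least 10 counts in every library, a filter that removed Gjb6 and Ntsr2. Serpina3n was at 0.0011 with total counts. With the block, Fabp7, Acsbg1 and Sparcl1 were at 0.035, -0.019 and 0.018 in edgeR and 0.040, -0.022 and 0.023 in DESeq2, and Acsbg1 was at -0.062 with the scaling to other astroglia genes. Without the replicate 1 pair, Fabp7 was at 0.12, Mlc1 at 0.042, Acsbg1 at -0.16 and Sparcl1 at 0.069. Without the replicate 2 pair, Sparcl1 was at 0.019 and Serpina3n at 0.12. Without the replicate 3 pair, Fabp7 was at 0.041, Fgfr3 at 0.0028, Ntsr2 at -0.016 and Clu at 0.034. Leaving out 1 library without a block, 19 genes changed sign at least once. Their lowest and highest values were -0.42 and 0.68 for Gfap, -0.47 and 0.93 for Hopx, -0.41 and 0.52 for Fabp7, -0.68 and 0.44 for Aqp4, -0.47 and 0.45 for Mlc1, -0.66 and 0.23 for Hepacam, -0.56 and 0.21 for Gja1, -0.60 and 0.17 for Ttyh1, -0.35 and 0.088 for Fgfr3, -0.34 and 0.76 for Ednrb and -0.29 and 1.34 for Ntsr2. They were -0.24 and 0.61 for Aldh1l1, -0.20 and 0.51 for Aldoc, -0.56 and 0.46 for Acsbg1, -0.73 and 0.35 for Ndrg2, -0.16 and 0.098 for Clu, -0.087 and 0.23 for Cst3, -0.52 and 0.61 for Sparcl1 and -0.25 and 0.23 for Serpina3n. The 8 genes called with the block kept their direction under every alternative, but their values without 1 library and without a block ran from 0.39 to 1.04 for Gdf10, 0.23 to 0.90 for S100b, 0.13 to 0.56 for Cd44, 0.094 to 0.62 for Lcn2, 0.38 to 0.68 for Timp1, -0.50 to -0.13 for Slc4a4, -0.69 to -0.38 for Atp1b2 and -0.50 to -0.28 for C3.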
